A study of Mus musculus with 16 samples.

Results

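The de novo lipogenesis genes described here are the enzymes Acly, Acaca, Fasn, Elovl6, Scd1, Scd2 and Me1 and the regulators Srebf1, Mlxipl and Thrsp. They were chosen by name, with earlier results of these data known, as the rows of the expression table carrying these symbols. Counts of called genes set beside the share of all genes are therefore a description. All 10 were found among the 23970 gene symbols of the table. A mean of at least 0.5 FPKM (fragments per kilobase of transcript, divided by the mapped size of the library) over the libraries was required for testing, which 11256 symbols reached, 9 of the 10 among them. Elovl6 lay under that filter and was tested on its own.

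De novo lipogenesis builds fatty acids from carbohydrate carbon. Citrate leaves the mitochondrion and is split to acetyl-CoA, acetyl-CoA is carboxylated to malonyl-CoA, and fatty acid synthase joins these units into palmitate with NADPH as the reductant, after which elongases and desaturases lengthen the product and introduce double bonds. The pathway is best known from liver and adipose tissue, where insulin acts on it through SREBP-1c, the product of Srebf1, and glucose through ChREBP, the product of Mlxipl. Skeletal muscle has lower lipogenic activity and holds other cell types that use the pathway, such as adipocytes between the fibres and the Schwann cells of its nerves.

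Quadriceps mRNA was sequenced from 16 male C57BL/6NTac mice, 4 in each group, obtained at 16 weeks of age after 10 weeks on a control diet (CON, 10% of kcal from fat and 70% from carbohydrate) or a high-fat diet (HFD, 60% from fat and 20% from carbohydrate). CON-pre and HFD-pre mice were sampled without exercise, after the same treadmill acclimatization and fast as the others. CON-post and HFD-post mice were sampled 3 h after a single treadmill run to exhaustion, with water but no food in between. No further treatment or allele distinguished the groups, and diet composition differed in carbohydrate as well as fat, so an effect of either nutrient cannot be told apart from one of the other. The labels number the libraries of a group 1 to 4 and say nothing of litters or cages, so mice were treated as independent. The p-values of the main fit rest on the spread within groups, pooled over the 4 groups and moderated across genes.

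Library totals ranged from 283575 to 329282 FPKM, and any 2 libraries correlated at 0.966 to 0.984 on the log2 scale. FPKM carries no read depth, and values of low genes gave only a relative depth of 0.702 to 1.125 against CON-pre replicate 1. Muscle fibre markers were abundant in every library (10 of 10 passed the filter, summed FPKM 56800 to 75400). The other lists were far lower, at 333 to 675 for the 12 adipocyte markers, 29.4 to 47.6 for 10 Schwann cell markers (5 passed the filter), 66.5 to 97.9 for 8 endothelial markers, 66.6 to 194 for the 8 macrophage markers found, and 0.429 to 35.0 for 8 liver markers (5 passed). In whole muscle, fewer cells of a type and less RNA per cell cannot be told apart.

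The 10 genes lie on 6 chromosomes. RefSeq (GRCm38.p6) places Fasn at 11:120805958-120825166, Acaca at 11:84129635-84401651, Acly at 11:100476352-100528000 and Srebf1 at 11:60199084-60224186, while Scd1 (19:44394450-44407709) and Scd2 (19:44293676-44306864) are neighbours in the stearoyl-CoA desaturase cluster. The others are Elovl6 (3:129532386-129638495), Me1 (9:86581363-86695914), Thrsp (7:97412933-97417550) and Mlxipl (5:135089890-135139768), all protein-coding. Scd1 and Scd2 share sequence, with 145 of the 4787 stretches of 50 bases in the Scd1 transcript also present in Scd2, so a small share of their reads could have been assigned to either gene.

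The promoters of the enzymes are known to be bound by SREBP-1c together with NF-Y, a factor that recognises CCAAT boxes. RefSeq windows of 250 bases before to 50 bases after a start site were found for 8 of the 10 genes (12 windows), and both strands were searched for 3 motifs. CCAAT was present in 7 of the 12 windows, against 37.4% of all 32851 mouse windows, GGGCGG (a GC box) in 5 of 12 against 35.7% and CACGTG (an E-box) in 1 of 12 against 7.15%. The windows of Fasn, Acly and Acaca are printed because these genes were called for diet over both states, and of the 2 windows of Me1, whose expression differed little between groups, the one at the 5′ end of the gene is printed for comparison. Capitals mark CCAAT or its reverse complement, and positions count from the start site. The Fasn window (chr11:120824498-120824797, minus strand) held 3 matches at -90, -62 and -59, of which the last and the one before it overlap. The Acly window (chr11:100527951-100528250, minus strand) held 1 at 38, downstream of the start, and the Me1 window shown (chr9:86695865-86696164, minus strand) held 0. The only Acaca window (chr11:84195188-84195487, plus strand) held 0 as well. Its start site lies 65803 bases inside the gene, so the 5′ end of Acaca was not covered, whereas the start site of the Fasn window lies 619 bases inside the gene and those of the Acly and Me1 windows shown lie at the 5′ ends of these genes. Of the windows not printed, that of Thrsp held 2 matches (-79 and -52), that of Elovl6 held 0, the 3 of Srebf1 held 1, 0 and 1, the 2 of Mlxipl held 0 and 1, and the other Me1 window held 1 at -208. A match is a description of the sequence and not evidence of binding.
Fasn window: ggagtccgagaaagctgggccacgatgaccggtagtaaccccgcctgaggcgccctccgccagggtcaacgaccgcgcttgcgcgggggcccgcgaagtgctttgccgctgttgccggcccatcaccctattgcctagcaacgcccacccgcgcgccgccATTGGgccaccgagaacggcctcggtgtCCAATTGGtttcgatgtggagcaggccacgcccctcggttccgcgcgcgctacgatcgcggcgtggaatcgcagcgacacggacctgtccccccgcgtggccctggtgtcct
Acly window: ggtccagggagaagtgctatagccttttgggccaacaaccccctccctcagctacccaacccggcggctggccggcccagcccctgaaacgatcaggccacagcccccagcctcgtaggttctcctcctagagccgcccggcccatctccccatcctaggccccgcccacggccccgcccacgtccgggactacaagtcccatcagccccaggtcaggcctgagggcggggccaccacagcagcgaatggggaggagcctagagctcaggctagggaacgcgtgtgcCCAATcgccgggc
Acaca internal start window: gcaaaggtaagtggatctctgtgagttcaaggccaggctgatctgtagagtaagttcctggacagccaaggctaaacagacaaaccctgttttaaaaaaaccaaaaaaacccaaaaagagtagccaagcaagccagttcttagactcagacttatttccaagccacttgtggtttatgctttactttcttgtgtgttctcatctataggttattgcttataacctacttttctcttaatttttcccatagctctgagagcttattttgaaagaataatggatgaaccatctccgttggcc
Me1 window: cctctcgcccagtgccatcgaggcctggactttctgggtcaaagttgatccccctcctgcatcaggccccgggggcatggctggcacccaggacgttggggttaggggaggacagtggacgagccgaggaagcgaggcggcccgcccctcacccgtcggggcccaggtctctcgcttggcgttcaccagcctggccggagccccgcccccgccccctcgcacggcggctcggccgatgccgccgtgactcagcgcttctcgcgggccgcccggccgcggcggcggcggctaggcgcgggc

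FPKM are scaled for transcript length, so levels can be ordered between genes. The mean over all 16 libraries was 50.8 FPKM for Me1 and 47.9 FPKM for Scd1, above 93.9% and 93.5% of the genes tested. Mlxipl (15.3 FPKM), Thrsp (11.4), Srebf1 (9.03), Scd2 (6.22), Fasn (5.09) and Acly (4.53) followed. Acaca was lower at 1.27 FPKM, above only 17.1% of the genes tested, and Elovl6 averaged 0.312 FPKM. Ranges over the 16 libraries overlapped between neighbours in this order, except between Scd1 and Mlxipl, between Acly and Acaca, and between Acaca and Elovl6. The cytosolic malic enzyme and a desaturase were therefore listed well above the synthase and the carboxylase in this tissue.

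**Figure D1:**
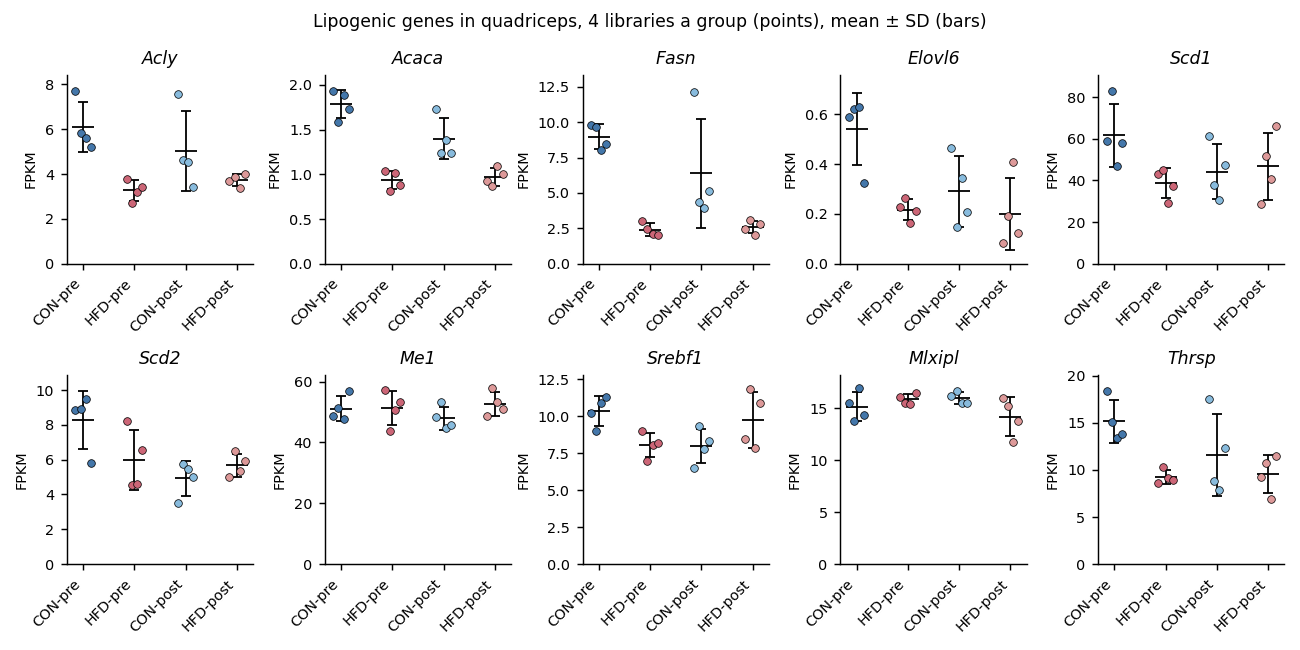
FPKM of the 10 lipogenesis genes in each library (points), with the mean and SD of each group (horizontal and vertical bars), on linear axes that start at 0. Fasn, Acaca, Acly, Scd1, Elovl6, Srebf1 and Thrsp lay lower in all 4 HFD-pre libraries than in all 4 CON-pre libraries, and the CON-post group holds a library with Fasn at 12.1 FPKM.

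The comparison of HFD-pre with CON-pre gives the effect of the diet before exercise. Fasn and Acaca were down-regulated. Acly, Elovl6, Scd1, Srebf1 and Thrsp were also lower in every HFD-pre library than in any CON-pre library but were not called, and Scd2, Me1 and Mlxipl overlapped between the diets. At an adjusted p under 0.05 (limma, Benjamini-Hochberg over all genes tested), 2 of the 9 tested genes were called lower and 0 higher, where 0.107% of all genes were called lower. Of the same 9 genes, 7 were lower at an unadjusted p under 0.05 (5.76% of all genes), and 6 had groups that did not overlap with HFD-pre below CON-pre (3.94% of all genes). The median log2 fold change of the 9 was -0.648, beside -0.034 over all genes tested. These values are on the log2(FPKM + 0.5) scale, which understates the change of low genes.

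ATP citrate lyase (Acly) makes cytosolic acetyl-CoA from citrate and is the entry step of the pathway. Its FPKM were 7.71, 5.81, 5.61 and 5.20 in the 4 CON-pre libraries and 3.77, 2.69, 3.20 and 3.42 in HFD-pre. All HFD-pre values lay below all CON-pre values, and the group mean went from 6.08 ± 1.12 to 3.27 ± 0.452 FPKM (SD, n = 4). A log2 fold change of -0.80 (95% interval -1.16 to -0.43) missed the threshold (limma adjusted p = 0.0638). Without CON-post replicate 1, which is in neither group but enters the shared estimate of spread, the adjusted p was 0.00914, and without CON-post replicate 4 it was 0.0337. Acly was not called in the other 14 fits that left out a library, nor in 25 of the 29 alternatives in all, with an adjusted p of up to 0.228.

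Acetyl-CoA carboxylase 1 (Acaca) forms the malonyl-CoA used for synthesis. It was 1.93, 1.59, 1.89 and 1.73 FPKM in CON-pre and 1.04, 0.819, 1.01 and 0.886 FPKM in HFD-pre. The groups were separated by more than the spread within either, and the ratio of their means was 0.526. Acaca had a log2 fold change of -0.67 (95% interval -0.89 to -0.44; limma adjusted p = 0.00837), and the adjusted p stayed at or below 0.0435 in the 29 alternative fits.

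Fatty acid synthase (Fasn) makes palmitate. It was 9.78, 9.67, 8.02 and 8.43 FPKM in CON-pre and 3.03, 2.46, 2.09 and 2.06 FPKM in HFD-pre. The highest HFD-pre library was thus far below the lowest CON-pre library, and the mean of HFD-pre was 0.269 of that of CON-pre, the lowest ratio among the 10 genes. Its log2 fold change of -1.71 had a 95% interval of -2.22 to -1.20 (limma adjusted p = 0.0044, at most 0.024 in the 29 alternatives).

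The enzymes that modify palmitate showed smaller or less certain differences. The elongase Elovl6, which extends palmitate to stearate, was 0.590, 0.620, 0.628 and 0.324 FPKM in CON-pre and 0.227, 0.265, 0.164 and 0.211 FPKM in HFD-pre. The groups did not overlap, although CON-pre replicate 4 stood apart from the others of its group. An exact two-sided permutation test gave p = 0.029, the smallest that 4 libraries against 4 allow, and 0.114 after adjustment over its 4 comparisons. The difference was -0.53 on the log2(FPKM + 0.5) scale, -0.99 with a pseudocount of 0.1 and -0.34 with a pseudocount of 1.

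Scd1 and Scd2 introduce the double bond that makes oleate and palmitoleate. Scd1 was 58.9, 83.0, 46.8 and 57.8 FPKM in CON-pre and 43.3, 45.1, 29.4 and 37.5 FPKM in HFD-pre. The groups did not overlap, but only narrowly, and the log2 fold change of -0.65 (95% interval -1.17 to -0.12) was not called (limma adjusted p = 0.455). Scd2 was 8.87, 8.91, 9.50 and 5.80 FPKM in CON-pre and 8.21, 4.55, 4.62 and 6.54 FPKM in HFD-pre, and these ranges overlapped. Its log2 fold change was -0.45 (95% interval -0.85 to -0.055; limma adjusted p = 0.52).

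Malic enzyme 1 (Me1), which supplies cytosolic NADPH, was 48.6, 51.2, 47.7 and 56.8 FPKM in CON-pre and 57.3, 43.9, 50.8 and 53.3 FPKM in HFD-pre. The groups overlapped over most of their range. Me1 had a log2 fold change of 0.004 with a 95% interval of -0.18 to 0.19 (limma adjusted p = 0.998), an interval that does not reach the estimate for Acaca or Fasn.

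Of the regulators, Srebf1 was 10.2, 9.01, 10.9 and 11.3 FPKM in CON-pre and 8.96, 6.96, 8.06 and 8.16 FPKM in HFD-pre. The groups were separated only narrowly, and the log2 fold change of -0.35 (95% interval -0.62 to -0.074) was not called (limma adjusted p = 0.455). Mlxipl was 15.5, 13.8, 16.9 and 14.3 FPKM in CON-pre and 16.1, 15.5, 15.4 and 16.4 FPKM in HFD-pre. These ranges overlapped, with a log2 fold change of 0.068 (95% interval -0.11 to 0.25; limma adjusted p = 0.914). Gene-level FPKM do not separate the SREBP-1a and SREBP-1c transcripts of Srebf1 or the isoforms of Mlxipl.

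Thrsp (also called Spot 14) encodes a small protein that follows carbohydrate feeding and thyroid hormone in lipogenic tissue. It was 18.4, 15.1, 13.4 and 13.8 FPKM in CON-pre and 8.63, 10.3, 9.11 and 8.91 FPKM in HFD-pre. All HFD-pre values were below all CON-pre values. Thrsp thus had a log2 fold change of -0.68 (95% interval -1.10 to -0.26), with a limma adjusted p of 0.249 in the fit of all 4 groups and of 0.0412 in a fit of the pre-exercise groups alone. That fit was the exception, as Thrsp was not called in the other 28 of the 29 alternatives (adjusted p up to 0.588).

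**Figure D2:**
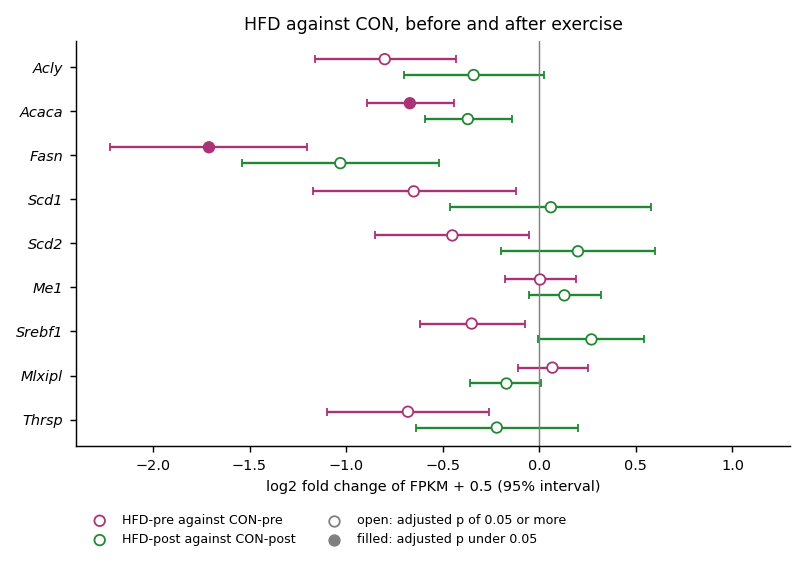
Log2 fold change of FPKM + 0.5 between HFD and CON for the 9 tested genes, before (magenta) and after exercise (green), with 95% intervals from limma and filled points where the adjusted p was under 0.05. Fasn (-1.71) and Acaca (-0.67) before exercise are the filled points, and after exercise the Fasn estimate was -1.03.

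The comparison of HFD-post with CON-post repeats the diet contrast in other mice, sampled 3 h after exercise, and shares no library with the one above. Called genes numbered 0 of 9 (0.151% of all genes were called in either direction). Fasn and Acaca had the largest declines, and they were both the 2 of 9 genes lower at an unadjusted p under 0.05 (3.17% of all genes) and the 2 whose groups did not overlap with HFD-post below CON-post (1.28% of all genes). The median log2 fold change of the 9 genes was -0.173, beside 0.004 over all genes.

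Fasn was 12.1, 4.36, 3.91 and 5.15 FPKM in CON-post and 2.43, 3.11, 2.06 and 2.78 FPKM in HFD-post. CON-post replicate 1 stood far above the rest, and even the lowest CON-post library exceeded the highest HFD-post library. The difference was -1.03 on the log2 scale (95% interval -1.54 to -0.52; limma adjusted p = 0.151), and without CON-post replicate 1 it was -0.69 (adjusted p = 0.0806).

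Acaca was 1.73, 1.24, 1.39 and 1.24 FPKM in CON-post and 0.925, 0.866, 1.09 and 1.00 FPKM in HFD-post. Its groups did not overlap either, and the log2 fold change was -0.37 (95% interval -0.59 to -0.14; limma adjusted p = 0.328). Acly was 7.55, 4.61, 4.53 and 3.42 FPKM in CON-post and 3.68, 3.89, 3.37 and 3.99 FPKM in HFD-post. Here CON-post replicate 4 fell among the HFD-post libraries, and the log2 fold change was -0.34 (95% interval -0.70 to 0.026), or -0.14 without CON-post replicate 1.

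For the remaining genes, the intervals of the post-exercise diet difference included 0. Thrsp was 17.5, 8.86, 7.83 and 12.3 FPKM in CON-post and 9.21, 10.7, 6.92 and 11.5 FPKM in HFD-post, and these ranges overlapped (log2 fold change -0.22, 95% interval -0.64 to 0.20). The Thrsp value rested on single libraries, at -0.009 when CON-post replicate 1 was left out, -0.38 for CON-post replicate 3 and -0.082 for HFD-post replicate 3. Scd1 was 61.2, 37.6, 30.7 and 47.6 FPKM in CON-post and 28.6, 51.6, 40.6 and 66.2 FPKM in HFD-post, a spread within each group that was wider than the difference between them (log2 fold change 0.060, 95% interval -0.46 to 0.58). Srebf1 was 6.51, 9.31, 7.77 and 8.29 FPKM in CON-post and 8.45, 11.8, 7.85 and 10.9 FPKM in HFD-post (log2 fold change 0.27, 95% interval -0.009 to 0.54).

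Scd2, Me1, Mlxipl and Elovl6 overlapped between diets after exercise as well. The diet difference on the log2 scale was 0.20 (95% interval -0.20 to 0.60; 0.06 without CON-post replicate 1) for Scd2, 0.13 (-0.051 to 0.32) for Me1 and -0.17 (-0.36 to 0.011) for Mlxipl. Elovl6 went from 0.291 ± 0.142 to 0.201 ± 0.144 FPKM (exact permutation p = 0.343).

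Averaging the diet difference over both states used all 16 libraries. Of the 9 genes, 3 were called lower and 0 higher, where 0.471% of all genes were called lower. On the log2 scale the difference was -1.37 for Fasn (standard error 0.17; limma adjusted p = 0.000436), -0.52 for Acaca (standard error 0.075; adjusted p = 0.00135) and -0.57 for Acly (standard error 0.12; adjusted p = 0.032), and Thrsp was at -0.45 (standard error 0.14; adjusted p = 0.194). These 3 enzymes are consecutive steps from citrate to palmitate. Elovl6, in a fit without the filter, was at -0.35 (95% interval -0.58 to -0.13; adjusted p = 0.241). The call of Acly was the least secure, since its adjusted p lay between 0.052 and 0.0772 without any 1 of 11 libraries, and was under 0.05 only on leaving out replicate 4 of CON-pre, 1 of HFD-pre or 1, 3 or 4 of CON-post. Intervals were narrow around 0 for Me1 (0.069, 95% interval -0.062 to 0.20) and Mlxipl (-0.052, -0.18 to 0.077), and Srebf1 (-0.041, -0.24 to 0.15), Scd1 (-0.29, -0.66 to 0.076) and Scd2 (-0.13, -0.41 to 0.16) were not called.

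Exercise was compared within each diet, and each of these comparisons shares its libraries with the diet contrasts. The exercised mice had no food between the run and sampling, and the Methods do not say whether the fast of the other mice covered these hours. If it did not, an effect of exercise cannot be told apart from one of time without food. In CON mice, 0 of 9 genes were called (1.11% of all genes were called in either direction), while 5 were lower and 0 higher at an unadjusted p under 0.05 (5% of all genes were lower), and Scd2 was the only one whose groups did not overlap (2.53% of all genes did so with CON-post lower). Scd2 was 3.51, 5.77, 5.47 and 5.03 FPKM in CON-post, each below the lowest CON-pre library at 5.80 FPKM. Its log2 fold change was -0.69 (95% interval -1.08 to -0.29; limma adjusted p = 0.106), and without CON-pre replicate 4 it was -0.84 (adjusted p = 0.0291).

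The Fasn difference between CON-post and CON-pre depended on CON-post replicate 1. With that library, Fasn had a log2 fold change of -0.60 (95% interval -1.11 to -0.086; limma adjusted p = 0.35), and without it the value was -0.93 and was called (adjusted p = 0.00345). The other 3 CON-post libraries, at 3.91 to 5.15 FPKM, all lay below the lowest CON-pre library at 8.02 FPKM. Srebf1 (-0.36, 95% interval -0.64 to -0.090), Acaca (-0.27, -0.49 to -0.045) and Thrsp (-0.43, -0.85 to -0.005) were the other genes lower at an unadjusted p, and Acly (-0.29, -0.65 to 0.076), Scd1 (-0.49, -1.01 to 0.034), Me1 (-0.088, -0.27 to 0.10) and Mlxipl (0.078, -0.10 to 0.26) had intervals that included 0. Acly was -0.49 without CON-post replicate 1, -0.14 without CON-post replicate 4 and -0.18 without CON-pre replicate 1, and Thrsp was -0.27 without CON-post replicate 3, none of them called. Elovl6 went from 0.540 ± 0.145 to 0.291 ± 0.142 FPKM (exact permutation p = 0.0857). Markers of other tissues also differed in this comparison, with 5 of 5 liver markers lower after exercise (0 called, 2 at an unadjusted p under 0.05, median log2 fold change -1.622, mean sum 14.2 against 0.902 FPKM) and 3 of 5 Schwann cell markers higher at an unadjusted p under 0.05 (0 called, median 0.244). Their part in the exercise values was not tested, apart from the Schwann cell score used as a covariate. With it Thrsp was at -0.23 in this comparison (limma adjusted p = 0.893) and at -0.038 for exercise over both diets, where it was -0.20 without the score.

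In HFD mice, 0 of 9 genes were called (0.542% of all genes were), 0 reached an unadjusted p under 0.05 (11.7% of all genes did) and 0 had groups that did not overlap (6.81% of all genes). Fasn went from 2.41 ± 0.451 to 2.59 ± 0.451 FPKM (log2 fold change 0.088, 95% interval -0.42 to 0.60). The intervals were -0.19 to 0.26 for Acaca, -0.19 to 0.54 for Acly, -0.30 to 0.74 for Scd1, -0.43 to 0.36 for Scd2, -0.14 to 0.23 for Me1, -0.025 to 0.52 for Srebf1, -0.35 to 0.020 for Mlxipl and -0.39 to 0.45 for Thrsp. With the adipocyte score as a covariate, Scd1 was at 0.033 rather than 0.22 and Srebf1 at 0.089 rather than 0.25, and Scd1 was 0.031 without HFD-post replicate 4, 0.093 when HFD-pre replicate 3 was left out and 0.43 when HFD-post replicate 1 was. Elovl6 stayed low, at 0.217 ± 0.0418 before and 0.201 ± 0.144 FPKM after exercise (exact permutation p = 0.771).

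**Figure D3:**
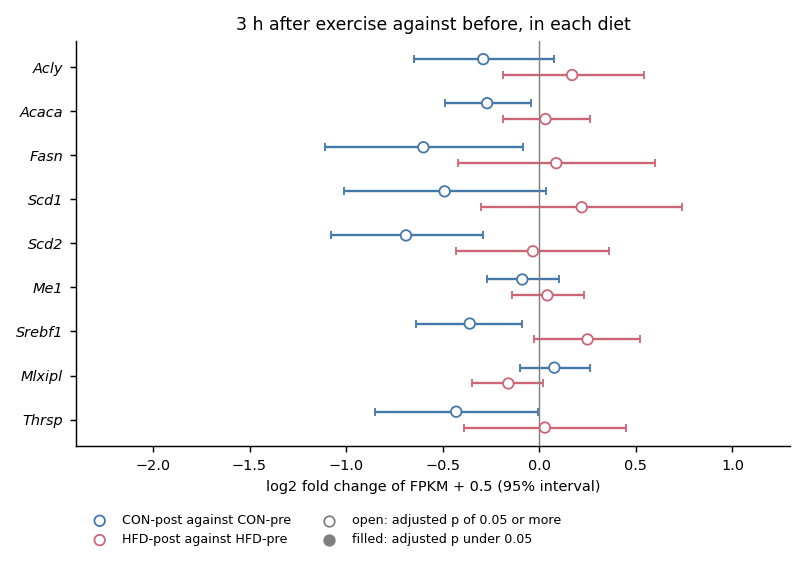
Log2 fold change of FPKM + 0.5 from before to 3 h after exercise for the 9 tested genes, in CON (blue) and HFD mice (red), with 95% intervals from limma and open points where the adjusted p was 0.05 or more. All points are open, and the Scd2 estimate in CON mice (-0.69) is the lowest.

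Whether the exercise response differed between diets was tested by the interaction of diet and exercise, defined as the change in HFD minus the change in CON. No gene of the 9 and none of the 11256 was called by limma (0% of all genes), and 2 of the 9, beside 3.16% of all genes, reached an unadjusted p under 0.05. Srebf1 had the lowest p among the 9 genes, with an interaction of 0.61 (95% interval 0.23 to 1.00; limma unadjusted p = 0.00403, adjusted p = 0.9999), its group means being 10.4 and 7.97 FPKM before and after exercise in CON and 8.04 and 9.74 FPKM in HFD. Scd2 followed at 0.65 (0.090 to 1.22), and the intervals of Fasn (0.68, -0.037 to 1.41), Scd1 (0.71, -0.032 to 1.45), Acly (0.46, -0.054 to 0.97), Acaca (0.30, -0.016 to 0.62), Thrsp (0.45, -0.14 to 1.05), Me1 (0.13, -0.13 to 0.39), Mlxipl (-0.24, -0.50 to 0.018) and, without the filter, Elovl6 (0.35, -0.10 to 0.80) included 0. Over both diets together, 0 of 9 genes were called for exercise (3.86% of all genes were), Scd2 being the one below an unadjusted p of 0.05 (6.8% of all genes were lower so; log2 fold change -0.36, limma adjusted p = 0.155). The other estimates lay between -0.25 (Fasn) and -0.023 (Me1), with intervals that included 0, and Elovl6 was at -0.23 without the filter (95% interval -0.45 to -0.0002; adjusted p = 0.35). Without CON-post replicate 1, Fasn was called in this average as well, at -0.42 (adjusted p = 0.0251).

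The genes around the pathway were examined as 5 lists (49 genes, 45 tested). For diet over both states, 3 of the 45 were called lower and 1 higher (0.471% and 0.489% of all genes). All 3 that were lower are in the list of 9 genes named for acetyl-CoA and NADPH supply. Of that list, G6pdx, Pgd and Idh1, which produce NADPH, were not called. The mitochondrial citrate carrier Slc25a1, which delivers the substrate of Acly, had means of 4.53 FPKM in CON-pre, 1.95 in HFD-pre, 3.38 in CON-post and 1.92 in HFD-post. Its diet difference was -0.88 on the log2 scale (SE 0.17; limma adjusted p = 0.019). Transketolase (Tkt), of the pentose phosphate pathway, was at 6.56, 3.69, 5.48 and 3.72 FPKM in the same order (-0.65, standard error 0.13, adjusted p = 0.0221). Its adjusted p was 0.0506 to 0.0571 when replicate 1 or 2 of CON-pre, 2 or 3 of HFD-pre or 2 of CON-post was left out. In all, Tkt was not called in 6 of the 28 alternatives, 5 of them these fits without a library.

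Acetoacetyl-CoA synthetase (Aacs), which turns ketone bodies into a lipogenic precursor, was also lower with HFD, at 1.59 FPKM in CON-pre, 0.666 in HFD-pre, 2.79 in CON-post and 1.48 in HFD-post (-0.79 on the log2 scale, SE 0.10; limma adjusted p = 0.00059). Malonyl-CoA decarboxylase (Mlycd), which breaks down the product of the carboxylases, was the gene called higher, at 20.1, 29.5, 29.1 and 34.6 FPKM (0.40, standard error 0.066, adjusted p = 0.00467). Acacb, the carboxylase isoform of the mitochondrial surface that is the main form in muscle, was at 37.8 ± 2.36 FPKM in CON-pre and 38.8 ± 0.965 in HFD-pre (diet over both states 0.014 on the log2 scale, 95% interval -0.079 to 0.11). None of the 10 elongation and desaturation genes, 14 further regulators or 7 triglyceride assembly genes tested was called for diet.

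After exercise, 6 of the 45 genes were called higher and 0 lower over both diets (2.95% of all genes were higher). Aacs (log2 fold change 0.70, limma adjusted p = 0.000768) and the NADPH-producing Idh1 (0.40, adjusted p = 0.0012) rose, as did Dgat2, which completes triglyceride synthesis (0.91, adjusted p = 0.00288), the phosphatidate phosphatase Lpin1 (0.37, adjusted p = 0.00141), Mlycd (0.38, adjusted p = 0.00355) and Acacb (0.20, adjusted p = 0.0161). Aacs was thus called lower with HFD and higher after exercise, a combination that none of the 9 lipogenesis genes tested showed. Acacb was not called under upper-quartile (adjusted p = 0.0542) or quantile scaling (0.0626) or with a Schwann cell score as a covariate (0.128), and Dgat2 not with that score (0.056). Marker lists of other cell types differed in this contrast as well. Of 11 adipocyte markers, 9 had estimates above 0 (0 called, 3 higher at an unadjusted p under 0.05, median log2 fold change 0.248 beside 0.014 over all genes). All 5 Schwann cell markers tested were above 0 (Prx called, 3 at an unadjusted p, median 0.159), and 5 of 8 endothelial markers were (Pecam1 called, 3 at an unadjusted p, median 0.055). With the adipocyte score as a covariate, Dgat2 (0.92, adjusted p = 0.00874) and Acacb (0.19, adjusted p = 0.0367) were still called. Liver markers were below 0 in 5 of 5 (0 called, 1 at an unadjusted p, median -1.061), and of the 10 fibre markers Des was called higher (0.23, limma adjusted p = 0.0322) with a median of -0.017. The part of endothelial, liver and fibre content was not tested.

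Fewer related genes were called in the comparisons of single groups. In HFD-pre against CON-pre, Aacs was lower (log2 fold change -0.85, limma adjusted p = 0.0138) and Mlycd higher (0.55, adjusted p = 0.0138; 0.24% of all genes were called higher). Aacs was not called without replicate 2 or 3 of CON-pre or 2 or 3 of HFD-pre (adjusted p 0.0508 to 0.0609), nor Mlycd without replicate 1 or 2 of CON-pre or 3 or 4 of HFD-pre (0.0557 to 0.0662). In HFD-post against CON-post, 0 of the 45 were called (0.151% of all genes were, in either direction). At an unadjusted p under 0.05, 5 were lower (3.17% of all genes) and 7 higher, but the share of all genes that was higher is not given here. In CON-post against CON-pre, 3 genes were higher (0.968% of all genes were), Lpin1 (0.50, adjusted p = 0.00344), Mlycd (0.52, adjusted p = 0.00709) and Aacs (0.65, adjusted p = 0.0397). Lpin1 was called in all 29 alternatives and Mlycd in 28, but Aacs in only 12, and of the fits that left out a library it was called only without replicate 3 or 4 of HFD-pre, 2 of CON-post or 1 or 2 of HFD-post (adjusted p up to 0.154 in the others). In HFD-post against HFD-pre, Aacs (0.76, adjusted p = 0.0258) and Idh1 (0.48, adjusted p = 0.0173) were higher (0.489% of all genes were). Aacs was not called without replicate 1, 2 or 3 of HFD-pre or 2, 3 or 4 of HFD-post (adjusted p 0.0533 to 0.109), nor Idh1 without replicate 2 of HFD-pre (0.066) or 2 of HFD-post (0.0808). In the same comparison 9 of 11 adipocyte markers (2 at an unadjusted p under 0.05, median 0.4 beside 0.035 over all genes) and 5 of 5 Schwann cell markers (0 at an unadjusted p, median 0.159) were above 0. Of 8 endothelial markers, 1 was called higher, but only 3 were above 0 and 5 were below (median -0.011). With the adipocyte score as a covariate neither Aacs (0.71, adjusted p = 0.0956) nor Idh1 (0.47, adjusted p = 0.0653) was called, and with the Schwann cell score Idh1 was (adjusted p = 0.0415) and Aacs was not (0.114).

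**Figure D4:**
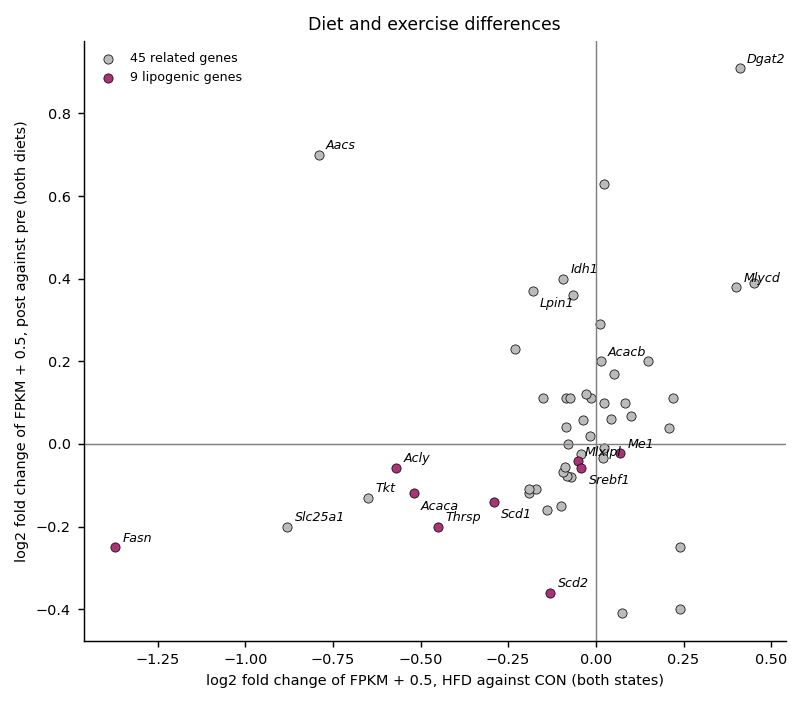
Log2 fold change for diet over both states (horizontal axis) against that for exercise over both diets (vertical axis), on the FPKM + 0.5 scale, for the 9 tested lipogenesis genes (magenta, all named) and 45 related genes (grey, named where called in either contrast). Fasn, Slc25a1, Tkt, Acly and Acaca lie on the left, with Aacs left and above and Dgat2 the highest point at 0.91. Both axes share libraries, so the scatter is not a test.

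Adipocyte content was followed because adipocytes express these genes strongly. The summed FPKM of 12 adipocyte markers was 382 to 490 in CON-pre, 333 to 424 in HFD-pre, 384 to 577 in CON-post and 347 to 675 in HFD-post, and these ranges overlapped between diets in both states. The mean sum was 438 in CON-pre and 380 in HFD-pre, and without Cfd, which went from 105 to 27.4 FPKM, it was 333 and 352. For diet over both states, 3 of the 11 markers tested were called, Lep higher (log2 fold change 2.54, limma adjusted p = 0.000243) and Cfd (-1.77, adjusted p = 0.000175) and Adrb3 (-0.73, adjusted p = 0.0267, not called without any 1 of 7 libraries) lower, whereas Adipoq (0.29, adjusted p = 0.692) and Plin1 (0.14, adjusted p = 0.857) were not. Estimates were above 0 for 7 markers and below 0 for 4 (median 0.139). In HFD-pre against CON-pre, 6 were above 0 and 5 below (median 0.074). At an unadjusted p under 0.05, Lep was higher there and 4 were lower (Cfd, Adrb3, Retn and Pck1), where 5.76% of all genes were lower. The score of a library is the mean log2(FPKM + 0.5) of the listed markers that passed the filter, each centred on its own mean. The adipocyte score includes Lep and Cfd, which moved in opposite directions with diet. It was -0.242 to 0.26 in CON-pre and -0.238 to -0.074 in HFD-pre. These ranges overlapped, so the covariate could change the diet difference little and is no control for adipocyte content. With the adipocyte score as a covariate, the diet difference before exercise was -1.72 for Fasn (adjusted p = 0.00608) and -0.67 for Acaca (adjusted p = 0.0124). With a Schwann cell score it was -1.69 for Fasn (adjusted p = 0.0107) and -0.69 for Acaca (adjusted p = 0.0144). Values of the other marker lists stand beside these differences. The summed fibre markers were 68100 to 75400 FPKM in CON-pre and 62000 to 67200 in HFD-pre without overlap, 6 of 10 being lower and 1 higher for diet over both states at an unadjusted p under 0.05 (0 called, median log2 fold change -0.144), and 8 of 8 macrophage markers had estimates below 0 (0 at an unadjusted p under 0.05, median -0.218). In HFD-pre against CON-pre, where Fasn and Acaca were called, 8 of 8 endothelial markers were above 0 (0 called, 2 at an unadjusted p under 0.05, median 0.17 beside -0.034 over all genes). In HFD-post against CON-post, 5 of 5 liver markers were above 0 (0 at an unadjusted p under 0.05, median 0.886), with sums of 0.872 to 35.0 FPKM in HFD-post and 0.548 to 1.46 in CON-post. The part of fibre, macrophage, endothelial and liver content in the differences was not tested.

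**Figure D5:**
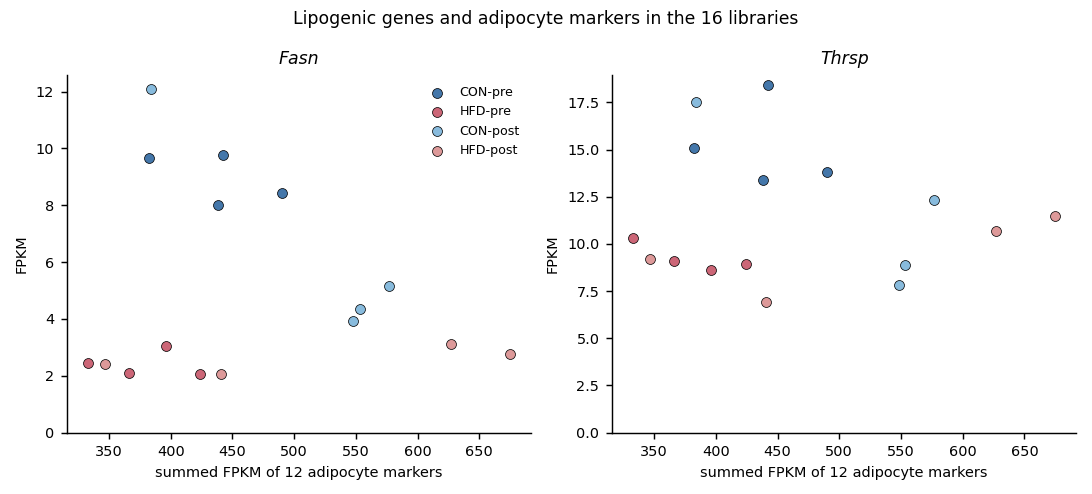
FPKM of Fasn (left) and Thrsp (right) in each of the 16 libraries against the summed FPKM of 12 adipocyte markers, coloured by group. Fabp4 was the largest part of this sum in every group. Within HFD-post, the libraries with marker sums of 627 and 675 had Fasn at 3.11 and 2.78 FPKM, above the 2.43 and 2.06 FPKM of those with sums of 347 and 441, whereas the CON-post library with Fasn at 12.1 FPKM had the lowest sum of its group (384).

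CON-post replicate 1 was the highest of its group for 6 of the 10 genes (Fasn, Acaca, Acly, Scd1, Elovl6 and Thrsp) and the lowest for Scd2 and Srebf1. HFD-pre replicate 1 was likewise the highest of its group for 6 genes (Fasn, Acaca, Acly, Scd2, Me1 and Srebf1). In CON-post replicate 1, Adipoq, at 10.6 FPKM, and the adipocyte sum, at 384, were the lowest of its group, and the liver marker sum was 0.548 to 1.46 in the CON-post libraries. No label sets either library apart.

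The genes whose log2 values were most like those of Fasn over the 16 libraries were Acaca (Pearson r = 0.919), Acly (0.901), Slc25a1 (0.888), Tkt (0.88) and Mtap (0.863), with Thrsp next (0.863). Scd1 was at 0.649, Srebf1 at 0.177, Mlxipl at 0.155, Me1 at -0.134 and, of the adipocyte genes, Adipoq at -0.33 and Cidec at -0.309. These points share the group differences described above. After subtraction of group means, the most alike were Snord49a (0.88), Krt6b (0.861), Thrsp (0.839), Krt6a (0.781) and Aldh1a7 (0.772), with Acly at 0.731, Acaca at 0.484, Adipoq at -0.196 and Cidec at 0.035. Without CON-post replicate 1 (15 libraries), they were Tmem127 (0.915), R3hdm2 (0.869), Ywhah (0.856), Zbtb20 (0.853) and Parp8 (0.841), with Thrsp at 0.698, Scd1 at 0.662, Acly at 0.233 and Acaca at -0.284, and with Adipoq at 0.528, Cidec at 0.474 and Plin1 at 0.128. The likeness of Acly and Acaca to Fasn within groups thus rested on 1 library, and leaving it out turned the sign for Adipoq, while that over all libraries also held the difference between diets.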

How the data were processed

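The authors prepared stranded mRNA libraries, checked reads with FastQC, aligned them with TopHat and estimated expression with Cufflinks, and deposited the estimates as FPKM for each library; versions are not given in the sources used here. FPKM already account for gene length and sequencing yield and are not counts, so no count model was used. The paper gives only an approximate read number per sample, and the precision from read depth was not estimated. The Methods and labels name mm9, but the loci in the study's supplement overlapped genes of GRCm38 (692 of 692, against 113 in mm9), so positions and promoters are from RefSeq GRCm38.p6. No coordinate was converted, and no value depends on the build used here.

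Of 24487 entries, 27 without a gene name (0.0771% of FPKM) were left out and the entries of 260 repeated symbols were summed, none of them a gene listed here. All sample columns entered the analysis (0 unmapped), and 0 pairs of libraries were identical. Testing was limited to a mean of 0.5 FPKM or more and used limma 3.58.1 (R 4.3.3) after a log2(FPKM + 0.5) transform, with eBayes trend, fitting the 4 groups together without covariates, at an adjusted p under 0.05 (Benjamini-Hochberg over 11256 genes in each contrast). The study compared groups with Cufflinks, which cannot be rerun from FPKM. Elovl6 was tested by an exact two-sided permutation test. Errors are SD over 4 libraries or limma standard errors. Fits were tested on simulated data with known changes. The remaining steps used Python 3.11.15 with numpy 2.4.6, pandas 2.3.3 and matplotlib 3.10.9.

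The 10 genes and the lists of related and marker genes were chosen with earlier results of these data known. The 9 tested genes are described in every contrast, and Elovl6 by permutation in the 4 comparisons of groups and by limma without the filter in the averaged contrasts and the interaction. Related genes are named where called, at most 5 in a list and contrast, and of genes outside the lists the 5 most correlated with Fasn, over the libraries and after subtraction of group means. The alternatives were other pseudocounts, filters, scalings, thresholds and covariates, no trend, array weights, a replicate block, fits of the compared groups alone, and leaving out each library.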

Additional observations from a re-analysis of the deposited data

Results flagged for a closer look

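In each of the 40 combinations of gene and group, the gap between the most extreme library and its nearest neighbour was compared with the range of the group, and 3 exceeded Dixon's 95% critical value of 0.83 for 4 values. Chance gives about 1 such group in 20. Fasn in CON-post replicate 1 was 12.1 FPKM, with the other 3 libraries at 3.91 to 5.15 FPKM (gap over range 0.848). Scd2 in CON-pre replicate 4 was 5.8 FPKM, with the others at 8.87 to 9.5 FPKM (0.83, above the critical value before rounding). Elovl6 in CON-pre replicate 4 was 0.324 FPKM, with the others at 0.59 to 0.628 FPKM (0.874). Both low values come from the same library, which was also the lowest of its group for Acly but not for Fasn, Acaca, Scd1 or Thrsp. The sources of these values were not tested.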

How the results depend on the processing

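Before exercise, Fasn and Acaca were called lower with HFD in all 29 alternative fits, and over both states in all 28. For diet over both states, the unadjusted threshold added Thrsp (limma unadjusted p = 0.00559). With that threshold the number of the 9 genes called rose to 7 in HFD-pre against CON-pre (5.76% of all genes were lower) and 2 in HFD-post against CON-post (3.17%). It rose to 5 in CON-post against CON-pre (5%), 1 for exercise over both diets (6.8%) and 2 for the interaction (3.16%, either direction). The number stayed at 0 in HFD-post against HFD-pre (11.7%, either direction). For CON-post against CON-pre it was 1 with quantile normalization (Scd2, adjusted p = 0.0443) and 0 to 1 when each library was left out, and for exercise over both diets 0 to 1. The numbers did not pair the libraries (correlation of deviations between same-numbered libraries -0.22 to 0.213, 6 of 16 best with their own number), and the fit with the replicate number as a block called 3 genes rather than 2 in HFD-pre against CON-pre (Acly, adjusted p = 0.0383) and changed no other count for the 9 genes. The replicate block ended the calls of Aacs in CON-post against CON-pre (adjusted p = 0.0928) and in HFD-post against HFD-pre (0.0703) and of Adrb3 for diet (0.0699), but Aacs was not called in 17 and 11 of the 29 alternatives in these comparisons, the block among them, with adjusted p up to 0.333 and 0.114. Acly over both states was also lost without a filter (0.0744), with median-of-ratios scaling (0.0501) and with the Schwann cell score (0.0511).

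Elovl6 in HFD-pre against CON-pre was -0.53 in a fit without a filter (adjusted p = 0.312) and -0.64 to -0.48 when a library was left out, -0.99 with a pseudocount of 0.1 and -0.34 with one of 1. Leaving out an HFD-pre library gave a permutation p of 0.0571. In HFD-post against HFD-pre its range was -0.18 to 0.03.

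Sign changes occurred only among uncalled values near 0. For HFD-post against HFD-pre, upper-quartile scaling gave -0.009 for Acaca, -0.021 for Me1 and -0.032 for Thrsp, quantile normalization -0.002, -0.042 and -0.025, median-of-ratios scaling -0.007 for Thrsp, the adipocyte score -0.005 for Me1 and the Schwann cell score -0.010 for Acaca. The adipocyte score gave -0.034 for Scd1 in HFD-post against CON-post, and the Schwann cell score 0.033 for Srebf1 and 0.017 for Mlxipl in exercise over both diets. Ranges over left-out libraries that crossed 0 were, for HFD-post against HFD-pre, -0.009 to 0.067 (Acaca), -0.030 to 0.10 (Me1), -0.14 to 0.12 (Scd2) and -0.063 to 0.17 (Thrsp). For exercise over both diets they were -0.16 to 0.016 (Acly) and -0.059 to 0.004 (Me1), and otherwise -0.050 to 0.076 (Me1, HFD-pre against CON-pre), -0.13 to 0.27 (Scd1, HFD-post against CON-post) and -0.088 to 0.005 (Srebf1, diet over both states). FPKM carries no depth and the paper gives only an approximate read number per sample, so the precision of low values such as Elovl6 was not estimated. A fit of only the compared groups could not be applied to the averaged contrasts or the interaction, and the trend, weight, quantile, block and covariate settings were not run for the permutation test of Elovl6.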
